A study of Mus musculus with 10 samples.

Results

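The genes described here are 34 genes of the interstitial matrix, the collagen-rich material between cells that fibroblasts of the dermis are known for making. They were chosen by name: interstitial collagens, small proteoglycans, adhesive and matricellular proteins, and fibroblast receptors and crosslinking proteins. All 34 are among the 18502 genes of the table for the Eed libraries, and 33 are among the 18344 genes of the table for the Ring1 libraries, where Col6a3 is not listed. With a mean of at least 5 normalised read counts over the libraries of a table, 29 and 27 of them could be tested.

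The study sequenced RNA from mouse epidermis lacking a subunit of either Polycomb complex, in 10 libraries of 4 groups. The Eed control group (n = 3) and the Eed knockout group (n = 3, Eed -/-) form one comparison. The Ring1 control group (n = 2) and the Ring1a/b 2KO group (n = 2, lacking both Ring1a and Ring1b) form the other, and each knockout has controls of its own. The series title names skin pigmentation as its subject. In every group 4-hydroxytamoxifen at 20 mg/ml was put on shaved back skin, 100 µl a day for 4 days from postnatal day 50, to induce recombination, and skin was taken at postnatal day 71. The sort kept interfollicular cells positive for EpCAM and Sca1 with high α6-integrin, a profile of basal keratinocytes. The labels give no Cre driver, no state of the control alleles, no sex and no statement on pooling. Nothing says that the libraries of a group are separate mice, so the p-values measure only the spread between these samples.

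Fibrillar collagens of types I, III and V assemble into the fibres of the dermis, and fibril-associated collagens and small leucine-rich proteoglycans such as decorin bind the surface of those fibres and set their spacing. Fibronectin, tenascins, thrombospondins and periostin connect the fibres to integrins on cells and are known to change in wounds. Keratinocytes are known to make some of these proteins, among them thrombospondin 1, tenascin C and fibronectin, whereas type I and type III collagen are textbook products of fibroblasts. Polycomb complexes 1 and 2 (PRC1 and PRC2) keep developmental genes silent through histone marks and are known to sit mostly at promoters rich in CpG. Eed is a core subunit of PRC2, and Ring1a and Ring1b are the ubiquitin ligases of PRC1.

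The reads recovered from the values numbered 31.7 to 40.7 M in the Eed libraries and 6.24 to 25.2 M in the Ring1 libraries, where library 2 of both groups was the shallowest. Mitochondrial genes took 2.34% to 3.58% of the reads in the Eed libraries and 6.51% to 12.7% in the Ring1 libraries, with the highest share in Ring1a/b 2KO 2. Values are normalised read counts, comparable between libraries of 1 table only. The count for Eed was 1845, 1319 and 1706 in its controls and 1412, 1143 and 1339.6 in its knockouts. For Ring1 it was 66.2 and 211 in controls and 104 and 115 in the double knockout, and for Rnf2, which encodes Ring1b, 675 and 669.7 against 720.1 and 529. These counts overlapped between the groups for all 3 targeted genes. They cover all exons, the deleted part is not given in the sources used here, and so they check no label. The sources used here do not say whether the kit marks strand, and antisense reads over a gene may be counted with it.

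Most of the promoter windows found for these genes held fewer CpG than the median window. RefSeq promoter windows on GRCm38.p6 were matched for 21 of the 34 genes (24 windows), and the 250 bases before the start were compared with 18038 windows of genes in the deposited tables. The median window held 12 CpG, and the median window of the interstitial matrix genes held 5.5. The ratio of observed to expected CpG had medians of 0.609 and 0.312, with 4 of the 24 windows at or above the median of all. Both windows of Tnc, which overlap each other, are among those 4. The letters TATAAA, read on both strands, were in 6 of the 24 windows, again with both of Tnc, and in 9.49% of all windows. TGAGTCA was in 2 and in 3.89%. A match describes the letters in the window and is not a site.

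Shown here are 4 windows that span this range, with each CpG in capitals. Col5a1, Vcan and Tnc rose in the authors' deposited table for Ring1a/b 2KO, and Col3a1 is a fibroblast collagen whose window holds no CpG. The Col5a1 window is chr2:27886175-27886424 on the plus strand, with 28 CpG. The Vcan window is chr13:89742513-89742762 on the minus strand, with 10. The Tnc window, at the more upstream of its starts, is chr4:64047016-64047265 on the minus strand, with 8. The Col3a1 window is chr1:45311288-45311537 on the plus strand, with 0.
Col5a1: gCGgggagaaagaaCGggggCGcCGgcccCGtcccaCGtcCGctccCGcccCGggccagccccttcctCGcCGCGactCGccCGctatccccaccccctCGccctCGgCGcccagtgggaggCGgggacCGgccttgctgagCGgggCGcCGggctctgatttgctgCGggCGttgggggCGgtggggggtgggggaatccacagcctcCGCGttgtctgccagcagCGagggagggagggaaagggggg
Vcan: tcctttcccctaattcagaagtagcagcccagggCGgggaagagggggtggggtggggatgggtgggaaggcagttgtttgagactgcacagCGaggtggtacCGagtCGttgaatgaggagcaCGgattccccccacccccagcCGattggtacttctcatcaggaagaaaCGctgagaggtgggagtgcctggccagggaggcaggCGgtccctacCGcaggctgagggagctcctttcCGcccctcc
Tnc: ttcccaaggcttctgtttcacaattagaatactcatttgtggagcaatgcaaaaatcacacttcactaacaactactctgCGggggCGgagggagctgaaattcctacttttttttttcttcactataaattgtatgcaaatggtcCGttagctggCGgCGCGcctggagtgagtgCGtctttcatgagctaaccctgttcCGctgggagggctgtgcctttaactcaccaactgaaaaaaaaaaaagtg
Col3a1: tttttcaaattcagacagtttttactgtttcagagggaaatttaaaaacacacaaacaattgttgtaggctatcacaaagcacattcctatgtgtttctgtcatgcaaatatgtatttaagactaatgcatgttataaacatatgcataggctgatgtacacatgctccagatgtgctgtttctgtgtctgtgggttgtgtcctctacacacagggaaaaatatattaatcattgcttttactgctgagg
Of all windows, 11.2% held at least as many CpG as that of Col5a1, 56.9% at least as many as that of Vcan and 62.8% at least as many as that of Tnc. By the ratio of observed to expected CpG, the Tnc window (0.638) was above the median of all windows (0.609). The other windows of the matched genes held between 2 and 21 CpG.

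In control epidermal cells the interstitial matrix genes covered nearly the whole range of expression. Per kilobase of exon, 9 of the 34 were above the median gene in the Eed controls (79.1 normalised counts per kb), and 9 were above it in the Ring1 controls (33.2 per kb). Thrombospondin 1 (Thbs1), an adhesive glycoprotein that activates TGF-beta, was the most abundant with 8894 per kb in Eed controls, a level reached by 0.898% of genes. Periostin (Postn), a matricellular protein of wounds and tendons, followed with 2579 per kb, and Sparc, a collagen-binding matricellular protein, with 1069.9 per kb. In the Ring1 controls the means were 2484, 1646 and 555 per kb, but only control 1 had Thbs1 above Postn (4144 against 1419 per kb), and control 2 had the reverse (824 against 1874 per kb). By count, the 3 most abundant genes held 82.6% and 78.8% of the summed control count of the set.

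At the other end, 19 of the 34 had a control mean under 50 in the Eed controls, and 19 of 33 did in the Ring1 controls. Collagen XV (Col15a1) and the PDGF receptor Pdgfrb had no read in any Eed control, and Col5a3, Pdgfrb and Loxl1 had none in the Ring1 controls. The type I and III collagen chains, lumican and Pdgfra, which are common markers of dermal fibroblasts, were below the median gene. Per kilobase in Eed controls Col1a1 reached 6.26, Col1a2 2.16, Lum 2.33, Pdgfra 0.897 and Col3a1 0.717, and 90.9% of genes were at or above the level of Col3a1.

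**Figure D1:**
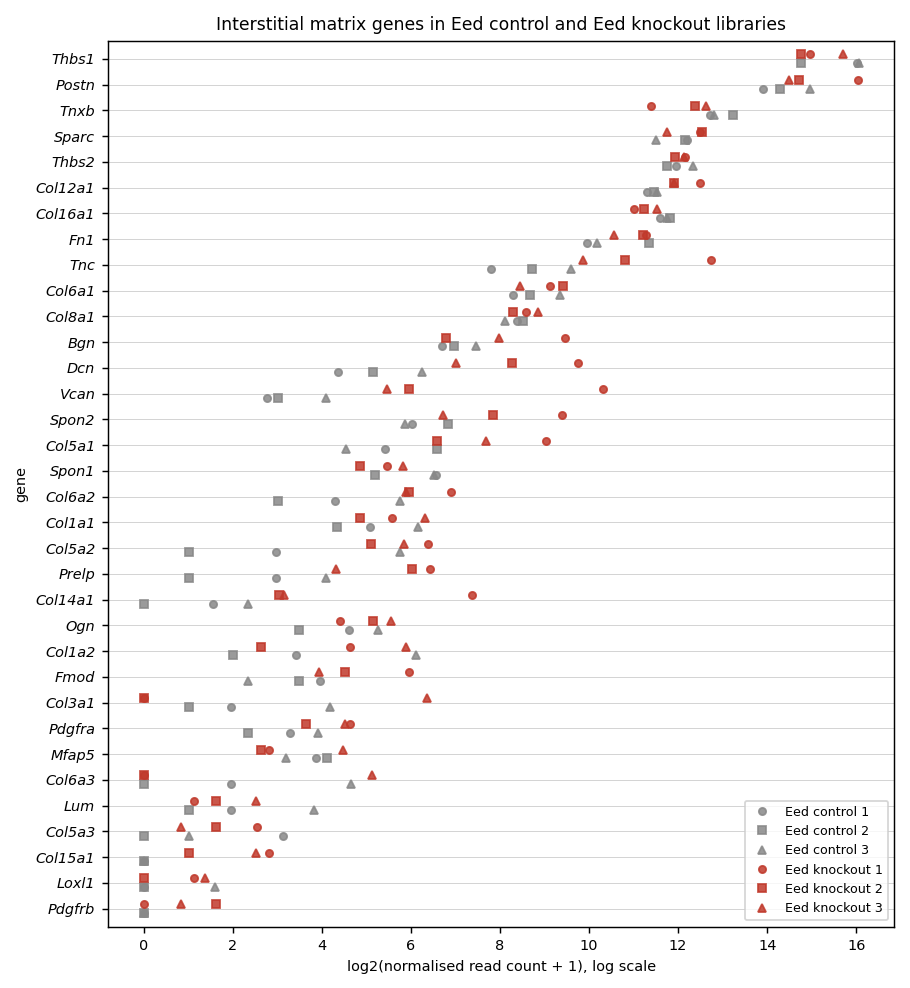
Normalised read count of each interstitial matrix gene in the 6 Eed libraries, as log2(count + 1) on the horizontal axis, with genes ordered by mean; grey marks are controls, red marks knockouts, and the shape gives the library number. Dcn, Tnc, Vcan and Prelp have all 3 red marks to the right of the grey ones, mostly with the red circle of knockout 1 farthest out, whereas Tnxb and Col16a1 have them to the left.

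The comparison of Eed knockout with Eed control asks which of these genes respond to loss of PRC2. Decorin and collagen V alpha 1 were higher in the authors' deposited table, and versican, tenascin C, prolargin and collagens VI alpha 2, XII and XIV were higher in all 3 knockouts without passing an adjusted test over the 6 libraries. Collagen XVI and tenascin X were lower in all 3. Type I and type III collagen did not separate the groups. Of the 29 genes tested, 22 had a log2 fold change above 0 (75.9%, against 51.2% of all 16122 genes tested), with a median of 0.58 against 0.0080.

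No gene of the table passed limma with Benjamini-Hochberg adjustment over all genes (background 0.0%), and the smallest adjusted p among the interstitial matrix genes was 0.550. At an unadjusted limma p under 0.05 there were 10 higher (background 3.4%) and 2 lower (background 1.33%). On the recovered reads, edgeR (quasi-likelihood) called 0 of 26 (background 0.0%), and 10 had an unadjusted p under 0.05 (background 4.63%). The authors' deposited table called 2 of 27 higher (background 0.707%) and 0 lower (background 0.0539%). The values of knockout and control did not overlap for 8 genes that were higher (27.6% of the 29, background 5.06%) and for 2 that were lower (6.90%, background 4.15%). The 8 include Col5a1 by a near tie, with 94.38 in knockout 2 and 94.35 in control 2.

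Knockout 1 held the highest value of the 6 libraries for 14 of the 29 genes tested (48.3%), against 28.4% of all genes tested. Knockout 3 held it for 6 and knockout 2 for 2. Folds that rest on knockout 1 are given with and without it.

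The small leucine-rich proteoglycans and versican were the group with the most uniform direction. All 6 that could be tested had a log2 fold change above 0, with a median of 2.22, and 3 of them did not overlap between groups (all genes: 51.2% above 0, 5.06% higher without overlap). With Lum included, the summed count of the 7 genes was 175, 188 and 336 in control libraries and 2999, 599 and 508 in knockout libraries.

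Decorin (Dcn, ENSMUSG00000019929.16, chromosome 10, 97479609 to 97518143), which coats collagen fibrils and binds TGF-beta, had counts of 19.5, 34.5 and 74.8 in the controls. The knockouts had 863, 306 and 129, each above every control. The means were 42.9 ± 28.6 and 433 ± 383 (SD, n = 3), 10.1-fold higher. The authors' deposited table gave a log2 fold change of 3.33 with an adjusted p of 0.000238, and limma an adjusted p of 0.550. Without knockout 1 the ratio was 5.06 and DESeq2 no longer called it (adjusted p = 0.124), and without control 3 it was 16.0.

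Versican (Vcan, ENSMUSG00000021614.16, chromosome 13, 89655312 to 89742509), the large hyaluronan-binding proteoglycan of embryonic mesenchyme and hair follicle papillae, was close to the floor of detection in the controls with 5.84, 7.10 and 16.2. Its knockouts had 1269.8, 61.2 and 43.4, all above the controls. The ratio of means was 47.2 and fell to 5.39 without knockout 1. In limma the log2 difference came to 3.95 with an SE of 1.13 (adjusted p = 0.772), and the authors' deposited table gives it no p. DESeq2 called it without knockout 2 (adjusted p = 0.00836) or knockout 3 (0.00490), fits that keep knockout 1. Without knockout 1 DESeq2 did not call it (adjusted p = 0.430).

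Prolargin (Prelp, ENSMUSG00000041577.5, chromosome 1, 133910304 to 133921414), which anchors basement membranes to the connective tissue beneath, had 6.82, 1.01 and 16.2 in the controls. In the knockouts it had 85.1, 64.3 and 18.9. Knockout 3 lay just above the highest control. The ratio was 7.01, or 5.20 without knockout 1 and 14.3 without control 3. Its limma adjusted p was 0.868, with 0.171 in the authors' deposited table.

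The other proteoglycans were less clear. Biglycan (Bgn), the close relative of decorin, had control counts of 102, 124 and 174 and knockout counts of 698, 109.9 and 252, which overlap. Fibromodulin (Fmod), which binds collagen fibrils too, had 14.6, 10.1 and 4.05 against 61.2, 21.8 and 14.2, with knockout 3 just under control 1. Osteoglycin (Ogn) overlapped between groups, with means of 23.6 and 33.5. Lumican (Lum), the proteoglycan of corneal and dermal fibrils, did not reach the minimum mean and had 2.92, 1.01 and 13.1 against 1.20, 2.07 and 4.73.

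Of the 6 fibrillar collagen chains, 4 had an adjusted p in the authors' deposited table, and 1 of these 4 was higher (background 0.707%). This was collagen V alpha 1 (Col5a1, ENSMUSG00000026837.15, chromosome 2, 27886425 to 28039514), which starts the assembly of collagen I fibrils. Its controls had 41.9, 94.4 and 22.2. The knockouts had 526, 94.4 and 204, so that knockout 2 and control 2 were nearly equal while the other knockouts were above all controls. The ratio was 5.20, and it was 2.82 without knockout 1 and 8.57 without control 2. The authors' deposited table gave a log2 fold change of 2.38 with an adjusted p of 0.0418. In DESeq2 that call was lost without control 1 (adjusted p = 0.402), control 3 (0.263), knockout 1 (1.00) or knockout 3 (0.0920).

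Collagen V alpha 2 (Col5a2), its partner chain, had 6.82, 1.01 and 52.6 against 82.7, 33.2 and 56.8, where control 3 lay between the knockouts. Its ratio of 2.86 was 2.23 without knockout 1 and 14.7 without control 3. DESeq2 called it without control 3 (adjusted p = 0.0170). Collagen I alpha 1 (Col1a1) had control counts of 33.1, 19.3 and 70.8 and knockout counts of 46.8, 28.0 and 78.9. Collagen I alpha 2 (Col1a2) had 9.74, 3.04 and 67.8 against 24.0, 5.19 and 58.4. The type I chains were thus highest in library 3 of both groups.

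Collagen III (Col3a1) had control counts of 2.92, 1.01 and 17.2 and knockout counts of 0, 0 and 81.3, all its knockout reads being in library 3. Collagen VI alpha 3 (Col6a3) had the same shape, with 2.92, 0 and 24.3 against 0, 0 and 33.9. Knockout 1, which had the highest decorin, versican and tenascin C, therefore had no read of either. Collagen V alpha 3 (Col5a3) was below the minimum mean, with means of 2.93 and 2.55.

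**Figure D2:**
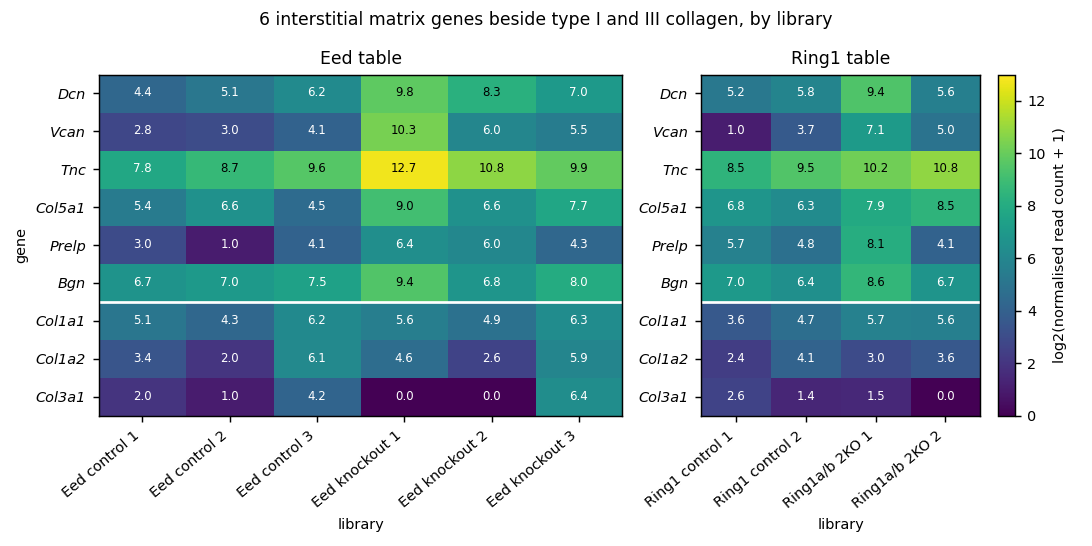
log2(normalised count + 1) of 6 interstitial matrix genes (above the white line) and of the type I and III collagen chains (below it) in each library, coloured and printed in each cell; these genes were chosen after their values were seen. In the Eed table the upper genes peak in Eed knockout 1, where Col3a1 is at 0, as it is in Eed knockout 2. Col3a1 peaks in Eed knockout 3.

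Of the network-forming collagens VI and VIII, Col6a2 (ENSMUSG00000020241.13, chromosome 10, 76595762 to 76623630), a chain of the beaded filaments around cells, had 18.5, 7.10 and 52.6 in the controls. The knockouts had 118, 61.2 and 58.4, each above the highest control. The ratio was 3.03 (limma adjusted p = 0.951). It was 2.29 without knockout 1 and 6.17 without control 3. Its partner Col6a1 was more abundant and overlapped, with means of 455 ± 175 and 526 ± 165 (SD, n = 3). Collagen VIII alpha 1 (Col8a1), of endothelial and corneal matrix, also overlapped, with means of 324 and 386.

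The fibril-associated collagens split. Collagen XII (Col12a1), which bridges fibrils under tension, had control counts of 2530.2, 2794 and 2948 and knockout counts of 5743, 3843 and 3843, 1.62-fold (limma adjusted p = 0.815). Collagen XIV (Col14a1, ENSMUSG00000022371.16, chromosome 15, 55307750 to 55520803), its relative in mature dermis, had 6 reads over the controls, as counts of 1.95, 0 and 4.05. In the knockouts it had 165, 7.26 and 7.89, a ratio of 30.1 that was 3.79 without knockout 1. Its limma adjusted p was 0.989, and DESeq2 over all the Eed libraries gave it no adjusted p. DESeq2 called it without knockout 2 (adjusted p = 0.0129) or knockout 3 (0.0189), fits that keep knockout 1. Without knockout 1 DESeq2 did not call it.

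Collagen XV (Col15a1), of the basement membrane zone, had 0 control reads and knockout counts of 5.995, 1.04 and 4.73. With 3 reads per control library taken as the floor, that is at least 1.31-fold higher. Collagen XVI (Col16a1), made by keratinocytes and fibroblasts at the dermal junction, went the other way. It had control counts of 3085, 3599.6 and 3444 and knockout counts of 2065, 2402 and 2939, a ratio of 0.731 (limma adjusted p = 0.989).

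Among the 9 adhesive and matricellular glycoproteins, tenascin C (Tnc, ENSMUSG00000028364.15, chromosome 4, 63959785 to 64047015), a wound and developmental matrix protein, had 223, 417 and 772 in the controls. The knockouts had 6827, 1795 and 933, all above the controls. The ratio was 6.77 and 2.90 without knockout 1 (limma adjusted p = 0.747, authors' deposited table adjusted p = 0.197). DESeq2 called Tnc without knockout 3 (adjusted p = 3.48e-05) and not without knockout 1 (0.348) or knockout 2 (0.233). Tenascin X (Tnxb), which stabilises the collagen of mature dermis, had control counts of 6734, 9632 and 7103 and knockout counts of 2688, 5325 and 6356. Every knockout was below every control, with a ratio of 0.612 (limma adjusted p = 0.989).

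Spondin 2 (Spon2), a secreted adhesive protein, had 64.3, 113 and 57.6 against 674, 229 and 105, with 1 control above knockout 3 (authors' deposited table, adjusted p = 0.0553). Fibronectin (Fn1), the main adhesive protein of provisional matrix, had 993, 2604 and 1149.9 against 2477, 2358 and 1497 and overlapped. The 3 genes highest per kilobase, Postn, Thbs1 and Sparc, overlapped as well. Postn had 15288, 20022 and 32017 against 67540.0, 26869.6 and 23137, a ratio of 1.75 that was 1.11 without knockout 1.

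Thbs1 had control counts of 66341, 27731 and 67962 and knockout counts of 31867, 27679 and 53481. Sparc had 4697, 4563 and 2897 against 5783, 5969 and 3422. Thbs2, a relative of Thbs1 that limits vessel growth, had means of 4195 and 4329, and Spon1 had means of 73.3 and 42.4. None of these 4 separated the groups.

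Of the PDGF receptors, which carry the growth signal of fibroblasts, Pdgfra had 8.77, 4.06 and 14.2 against 24.0, 11.4 and 22.1, and Pdgfrb had 3 reads in all, in knockouts 2 and 3. Mfap5, a microfibril protein, overlapped with means of 12.7 and 10.8, and Loxl1, a crosslinking enzyme of elastic fibres, had 5 reads over the 6 libraries. In bulk RNA of sorted cells, more cells of a type and more RNA per cell cannot be told apart.

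The comparison of Ring1a/b 2KO with Ring1 control asks the same of PRC1. Collagen V alpha 1, versican and tenascin C rose and fibronectin fell in the authors' deposited table. Tenascin X, thrombospondin 2 and collagen XVI had lower values in both double knockout libraries than in both controls, as 21.5% of all genes tested did. Decorin, biglycan, fibromodulin and prolargin were high in 2KO 1 alone. Of the 27 genes tested, 18 had a log2 fold change above 0 (66.7%, against 50% of all 15310 genes tested), with a median of 0.49 against −0.00062.

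limma called 0 of the 27 (background 0.0392%), with a smallest adjusted p of 0.202, while 6 were higher (background 5.62%) and 3 lower (background 4.81%) at an unadjusted p under 0.05. With edgeR 0 of 27 were called (background 0.0412%), and 8 had an unadjusted p under 0.05 (background 9.96%). The authors' deposited table called 3 of 28 higher (background 1.18%) and 1 lower (background 0.31%). With 2 libraries a group, 10 of the 27 were higher without overlap (37.0%, background 21.4%) and 4 were lower (14.8%, background 21.5%). Leaving out a library leaves 1 in its group, with no spread there. Calls gained or lost that way in this comparison carry little weight.

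**Figure D3:**
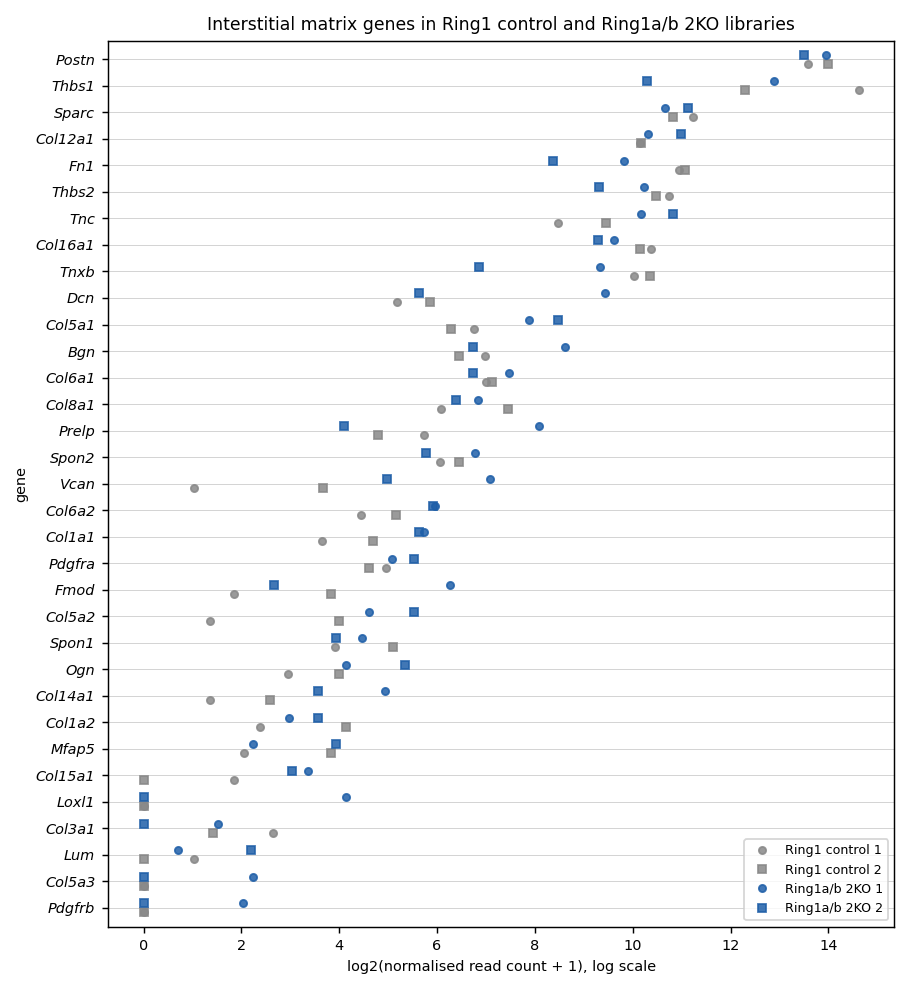
Normalised read count of each interstitial matrix gene in the 4 Ring1 libraries, as log2(count + 1) on the horizontal axis, with genes ordered by mean; grey marks are Ring1 controls, blue marks Ring1a/b 2KO, and the shape gives the library number. Col5a1, Tnc and Vcan have both blue marks to the right of the grey ones, Fn1 and Tnxb have them to the left, and Dcn, Prelp and Fmod have only the blue circle of 2KO 1 far to the right.

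Of the fibrillar collagens, Col5a1 had control counts of 107 and 76.4 and 2KO counts of 235 and 355. The means were 91.9 ± 21.8 and 295 ± 84.96 (SD, n = 2), 3.21-fold, with a log2 fold change of 1.66 and an adjusted p of 0.00965 in the authors' deposited table. DESeq2 lost the call without control 1 (adjusted p = 0.332), control 2 (0.544) or 2KO 2 (0.742). Its partner Col5a2 had 1.56 and 14.96 against 23.5 and 44.8, 4.14-fold, or 2.28-fold without control 1. That gene did not overlap, and its limma adjusted p was 0.452.

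Col1a1 had control counts of 11.5 and 24.9 and 2KO counts of 51.9 and 48.4, 2.76-fold without overlap (limma adjusted p = 0.455). The fold was 2.01 without control 1 and 4.38 without control 2. Col1a2, the other chain of the same triple helix, did not follow, with 4.17 and 16.6 against 6.80 and 10.8. Col3a1 had 5.21 and 1.66 against 1.85 and 0, and Col5a3 was seen only in 2KO 1, at 3.71.

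Of the other collagens, Col6a2 had 20.8 and 34.9 against 61.2 and 59.2, 2.16-fold, and Col12a1 had 1141 and 1148 against 1269 and 2037. Col14a1 had 1.56 and 4.99 against 29.7 and 10.8, 6.17-fold, or 3.29-fold without 2KO 1. Col15a1 had 2.60 and 0 against 9.27 and 7.17 and did not reach the minimum mean. These 4 did not overlap between groups. Col16a1 had control counts of 1317 and 1135 and 2KO counts of 782 and 624, a ratio of 0.573 (limma adjusted p = 0.276). Col6a1 and Col8a1 overlapped.

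Versican had control counts of 1.04 and 11.6 and 2KO counts of 134 and 30.5, 12.99-fold, with 9 reads behind the control values. The authors' deposited table gave a log2 fold change of 3.91 with an adjusted p of 0.0284. The ratio was 4.81 without 2KO 1, 21.2 without 2KO 2 and 7.08 without control 1, where DESeq2 no longer called it (adjusted p = 0.825). Without 2KO 1 DESeq2 gave it no adjusted p.

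The ratios of Dcn, Prelp, Fmod and Bgn rested on 2KO 1. Dcn had control counts of 35.4 and 56.5 and 2KO counts of 691 and 48.4, so that 2KO 2 lay between the controls. The ratio of 8.04 was 1.05 without 2KO 1. Prelp had 52.1 and 26.6 against 272 and 16.1, a ratio of 3.66 that turned to 0.410 without 2KO 1. Without 2KO 2, which leaves 1 double knockout library, the ratio was 15.03 for Dcn and 6.91 for Prelp.

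Fmod (2.60 and 13.3 against 76.0 and 5.38) and Bgn (126 and 86.4 against 391.9 and 106) were highest in 2KO 1 too. Ogn did not share this, with 6.77 and 14.96 against 16.7 and 39.4, 2.58-fold without overlap. That ratio was 1.54 without 2KO 2 and 4.14 without control 2. Lum had 5 reads over the 4 libraries. The summed count of the 7 proteoglycans was 225 and 209 in controls and 1582 and 249 in the double knockout.

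Among the glycoproteins, Tnc had control counts of 352 and 701 and 2KO counts of 1145 and 1804, 2.80-fold. The authors' deposited table gave a log2 fold change of 1.49 with an adjusted p of 0.0177, a call that DESeq2 lost without control 1 (adjusted p = 0.958) or 2KO 2 (0.456). Fn1 (ENSMUSG00000026193.15, chromosome 1, 71585520 to 71653200) had control counts of 1971 and 2142 and 2KO counts of 899 and 329.9. Both double knockout libraries were far below both controls, a ratio of 0.299. Its log2 fold change was −1.74 with an adjusted p of 0.00753 in the authors' deposited table. The ratio was 0.160 without 2KO 1, and DESeq2 lost the call without control 1 (adjusted p = 0.313) or control 2 (0.249).

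Tnxb had 1046 and 1306 against 644 and 115, a ratio of 0.323 (limma adjusted p = 0.637), which was 0.0976 without 2KO 1 and 0.547 without 2KO 2. Each of these 2 ratios rests on 1 double knockout library, with no spread within that group, so no test is given for it. Thbs2 had 1717 and 1429 against 1205 and 629, a ratio of 0.583 without overlap (limma adjusted p = 0.429). Thbs1 varied widely within each group, with 25167 and 5007 in controls and 7534 and 1259 in the double knockout, and library 2 of each group had the lower value. Its ratio of 0.291 was 0.878 without control 1 and 0.0834 without 2KO 1.

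Postn had 12345 and 16305 against 15935 and 11538, and Sparc had 2407 and 1798 against 1613 and 2252. Both overlapped between the groups. Spon1 and Spon2 overlapped, with means of 23.6 and 17.7 and of 76.0 and 81.0. Pdgfra had 30.2 and 23.3 against 32.8 and 44.8, 1.45-fold without overlap, and Pdgfrb had 5 reads, all in 2KO 1. Loxl1 had 0 reads in both controls, 16.7 in 2KO 1 and 0 in 2KO 2, at least 2.55-fold higher with the same floor, a bound that rests on 2KO 1. Mfap5 overlapped.

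The same genes can be set side by side across the 2 knockouts, whose controls are separate libraries. Of the 27 genes tested in both tables, 17 were above 0 in both (63.0%, against 33.9% of 15096 genes), 4 were below 0 in both (14.8%, against 33.1%) and 6 had opposite signs. Those 4 were Tnxb, Thbs1, Col16a1 and Spon1. The values did not overlap, with both knockouts higher, for Col5a1, Col6a2, Col12a1, Col14a1, Tnc and Vcan (background 2.58%). Col5a1 is among them by a near tie in the Eed libraries, with 94.38 in knockout 2 and 94.35 in control 2. Col14a1 reached the minimum mean only through its knockouts, with control means of 2.00 (Eed) and 3.27 (Ring1). Its place here, and in the counts of higher genes of each comparison, thus depends on the filter. They did not overlap, with both knockouts lower, for Col16a1 and Tnxb (background 1.78%).

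**Figure D4:**
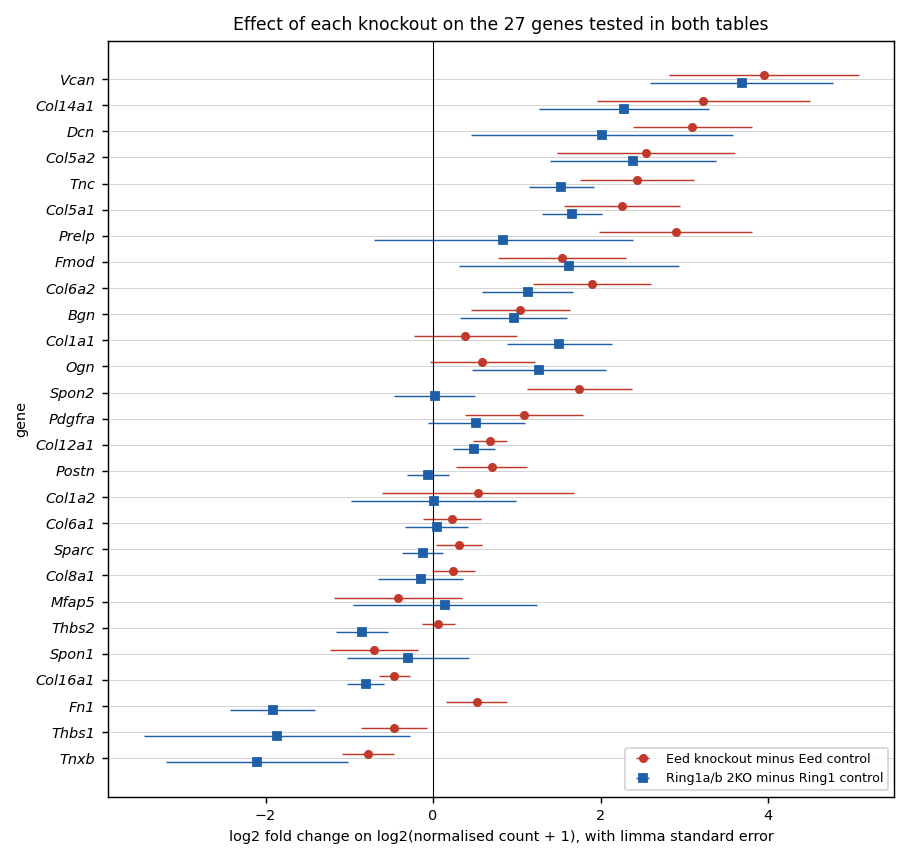
limma log2 fold change with its standard error for the 27 interstitial matrix genes tested in both tables, Eed knockout against its control in red and Ring1a/b 2KO against its control in blue. Vcan, Col14a1, Dcn and Col5a2 lie far to the right for both, Tnxb and Col16a1 to the left, and Fn1 lies to the right of 0 for Eed (0.52) and to the left for Ring1a/b (−1.91).

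Fibronectin had the smallest p for a difference between the knockouts. Its Eed effect minus its Ring1a/b effect was 2.43 ± 0.66 on the log2 scale (SE), which did not pass limma over all genes (adjusted p = 1.00). Thbs2 had a difference of 0.91 ± 0.38 (limma adjusted p = 1.00). These were the 2 of 27 at an unadjusted p under 0.05, against 1.89% of all genes, and limma called 0 of 15096 genes for this difference. For Vcan the difference was 0.27 ± 1.92 and for Col5a1 0.59 ± 0.98 (SE), errors too large to show that the knockouts acted alike.

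Some of these genes are neighbours in the genome. Lum starts 47.0 kb beyond the end of Dcn on chromosome 10 (97565128 to 97572703). Dcn had a mean of 433 in the Eed knockouts, and Lum had 2.67. Col5a2 and Col3a1 face each other across 24.6 kb of chromosome 1, and in the Ring1a/b 2KO libraries Col5a2 had 23.5 and 44.8 where Col3a1 had 1.85 and 0. Col6a2 and Col6a1 lie 85.2 kb apart on chromosome 10, and Col6a1 overlapped between groups in both tables where Col6a2 did not. Prelp and Fmod, 116 kb apart on chromosome 1, were both highest in Eed knockout 1 and in 2KO 1. These are the 4 pairs of the set with a gap under 200 kb.

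Enzymes that modify and process collagen were examined as a list of 27 genes. In the Eed comparison 2 of 26 tested were higher at an unadjusted limma p under 0.05 and 0 were lower, (background 3.4% and 1.33%), and the median log2 fold change was 0.09. In the Ring1a/b comparison 5 of 25 were higher and 3 lower (background 5.62% and 4.81%), with a median of 0.21. Plod2, the lysyl hydroxylase of collagen telopeptides, had 7.79, 10.1 and 90.0 against 479.6, 91.3 and 646 in the Eed libraries. In the Ring1 libraries it had 80.2 and 69.8 against 235 and 475, and rose in the authors' deposited table (adjusted p = 0.000346). P4ha3, a prolyl hydroxylase, had 21.4, 8.12 and 19.2 against 499, 58.1 and 20.5 and rose in the authors' deposited Eed table (adjusted p = 0.0184).

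Of 20 integrins and other matrix receptors, 2 were higher at an unadjusted limma p under 0.05 in the Eed comparison and 0 lower (background 3.4% and 1.33%). In the Ring1a/b comparison 2 were higher and 3 lower (background 5.62% and 4.81%). The higher ones were Itga1, the collagen-binding integrin alpha 1, and Itgb8, an activator of TGF-beta, in both comparisons. Itga1 had 206, 116 and 161 against 368, 219 and 273 in the Eed libraries and 90.6 and 155 against 177 and 299 in the Ring1 libraries. Of the matrix proteases and inhibitors, 22 were tested in the Eed comparison and 18 in the other, with 3 higher and 0 lower in each, against the same background. Adamts5, which cuts versican, had 30.2, 39.6 and 33.4 against 149, 106 and 142 and rose in the authors' deposited Eed table (adjusted p = 0.000926).

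Of 18 TGF-beta pathway genes, 3 were higher and 0 lower in the Eed comparison (background 3.4% and 1.33%), and 4 were higher and 3 lower in the Ring1a/b comparison (background 5.62% and 4.81%). Ctgf, a matricellular TGF-beta target, had 119 and 183 against 718 and 459 in the Ring1 libraries and rose in the authors' deposited table (adjusted p = 0.000157). Ltbp2, a latent TGF-beta binding protein family member, rose there too (adjusted p = 0.0201), with 53.1 and 81.4 against 172 and 271. Podn, a small leucine-rich proteoglycan outside the set, had 53.1 and 79.8 against 189 and 188 in the Ring1 libraries (authors' deposited table, adjusted p = 0.0384). Its list held 7 tested genes in the Eed comparison and 6 in the other, with 1 higher and 0 lower in each, against the same backgrounds. Of 3 PDGF ligands tested, 0 were at an unadjusted limma p under 0.05 in either comparison.

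Other markers of fibroblasts were examined beside these results. Of 14 such genes, 13 are in the Eed table, and 9 could be tested, 6 of them above 0 (51.2% of all genes) with a median of 0.63. Their summed count was 1094 to 1698 for the controls, and the knockouts had 2924, 1634 and 1391, again highest in knockout 1. S100a4, at 1539.6, and Vim, at 616, made up most of the sum in knockout 1, and both are also expressed outside fibroblasts. Tbx15, a transcription factor of dermal patterning, had 5.84, 11.2 and 16.2 against 282, 58.1 and 9.47 and rose in the authors' deposited table (adjusted p = 0.0451). The markers that define dermal fibroblasts did not share one pattern. Dpt had 0, 1.04 and 1.58 in the knockouts and Mfap4 had 0, 4.15 and 0, and neither was at 0 in every control. Pi16 had 81.5, 72.6 and 132 in the knockouts against 193, 64.9 and 126 in the controls. Prrx1 was highest in knockout 1, with 33.6 against 6.09 to 20.2 in the controls, and Meox1 had 12.0 there and 0 in the other 5 libraries. Knockout 1, with the most decorin and versican, thus had no read of Dpt, Mfap4, Col3a1 or Col6a3. It had reads of Pi16, Prrx1, Meox1, Pdgfra, Col1a1 (count of 46.8) and Col1a2 (24.0). Col3a1 and Col6a3 were at 0 in knockout 2 too and at most 2.92 in controls 1 and 2. Dpt and Mfap4 reached only 1.58 and 4.15 in any knockout. The zeros of these 4 genes thus lie near the floor. The part of other fibroblasts in these results was not tested.

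Of the same 14, 12 are in the Ring1 table, with sums of 429 and 356 for the controls, and 700.3 and 943 for the double knockout. Of 8 tested, 6 were above 0 (50% of all genes), with a median log2 fold change of 0.93. At an unadjusted limma p under 0.05, 2 were higher (Twist1 and Tbx15, background 5.62%) and 0 lower (background 4.81%). The sum of all 12 was higher in 2KO 2, whereas Dcn, Prelp, Fmod and Bgn were high in 2KO 1. Clec3b and Meox1 were at 0 in both double knockout libraries. Dpt had no control read and 1.85 and 1.79 in the double knockout, and Tbx15 rose in the authors' deposited table (adjusted p = 1.25e-06).

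Markers of other cells were followed in the same way. In the Eed comparison, endothelial markers had 2 of 8 lower (background 1.33%) and 0 higher (background 3.4%) at an unadjusted limma p under 0.05, with sums of 313 to 659 in controls and 314 to 614 in knockouts. Pericyte and smooth muscle markers had sums of 3855 to 5966 and of 4722 to 9429.9, highest in knockout 3. Merkel cell markers summed to 3.04 to 12.1 in controls and 132, 13.5 and 29.2 in knockouts. Of 6 hair follicle stem cell markers tested, 5 were above 0 (51.2% of all genes), with a median log2 fold change of 1.15. At an unadjusted limma p under 0.05, 3 of them were higher (background 3.4%) and 0 lower (background 1.33%). Of 5 dermal papilla markers tested, 4 were above 0 (51.2% of all genes), with a median log2 fold change of 1.90. At an unadjusted limma p under 0.05, 1 was higher (Wif1, background 3.4%). The summed count of the dermal papilla markers was 620.4 to 1089.6 in controls and 283 to 882 in knockouts. It was mostly that of Rspo3, which was lowest in knockout 1 (199).

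In the Ring1a/b comparison, pericyte and smooth muscle markers had sums of 1276 and 1163 in controls against 2057 and 2641. Of 6 dermal papilla markers tested there, 5 were above 0 (50% of all genes), with a median log2 fold change of 1.63. At an unadjusted limma p under 0.05, 2 were higher (background 5.62%) and 1 lower (background 4.81%). Melanocyte markers had 239 and 311 against 622 and 341, highest in 2KO 1. At an unadjusted limma p under 0.05, 3 of 6 were higher (background 5.62%) and 0 lower. Hair follicle stem cell markers had 2689 and 2205 against 3875 and 2989, with 3 of 6 higher by the same measure (background 5.62%) and 0 lower. Basal keratinocyte markers had 405283 and 333624 against 322699 and 279524, with 5 of 10 lower at an unadjusted limma p under 0.05 (background 4.81%). The part of these cell types in the results above was not tested.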

How the data were processed

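Total RNA of sorted epidermal cells was amplified and sequenced in 150-nt paired reads, per the labels' protocols. The authors deposited 1 table for the Eed libraries and 1 for the Ring1 libraries, each holding normalised read counts (signal) per gene with log2 fold changes, p-values and a test score (the fold change over its standard error). kallisto 0.42.5, DESeq2 3.11 and mm10 are named in the submitters' processing notes. Every value was a whole multiple of what 1 read is worth (tolerance 1e-06), so whole reads were recovered, 6.24 to 40.7 M a library, and 0 sample columns were left out. Low counts limit the precision of the scarcer genes.

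The main test was limma 3.58.1 (R 4.3.3) on log2(value + 1), over genes whose mean reached 5, with Benjamini-Hochberg adjustment over all genes at 0.05. The pseudocount makes fold changes of low genes smaller. edgeR 4.0.16 and DESeq2 1.42.0 were run on the recovered reads as alternatives, with other pseudocounts, filters, scalings, a replicate term and left-out libraries. The difference between knockouts was a limma contrast over all 10 libraries. Scripts were tested on simulated data. Positions are from GENCODE M21 on mm10, where 18495 of 18502 and 18339 of 18344 identifiers matched without version. The promoter windows come from RefSeq (GRCm38.p6).

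Genes are described in full where limma or the authors' deposited tables called them, where the groups did not overlap with a fold of at least 2, or where they were among the 3 highest per length. From each other list up to 3 called genes, or otherwise those at an unadjusted limma p under 0.05, were eligible. The genes and lists were chosen with earlier results of these data known. Further genes named by their values (Dpt, Pi16, Prrx1, Meox1, Mfap4, Clec3b, S100a4 and Vim) were chosen after their values were seen.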

Additional observations from a re-analysis of the deposited data

How the results depend on the processing

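Pseudocounts of 0.5 and 5, TMM scaling and the absence of a filter left the count of interstitial matrix genes above 0 within 1.5 times of its main value in both comparisons. That band is wide. It takes in a share above 0 near that of all genes, so it does not test the direction. With a mean of at least 50 there were 14 above 0 in the Eed comparison (22 in the main test) and 8 in the Ring1a/b comparison (18), since fewer genes were tested.

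The counts of genes called depended on the tool. In the Eed comparison limma called 0, DESeq2 called 127 and so did the authors' deposited table. In the Ring1a/b comparison limma called 6, limma without a filter 10, DESeq2 238 and the authors, in their deposited table, 231. Of the 2 interstitial matrix genes called by the authors for Eed, limma called 0 and edgeR 0. Of the 4 for Ring1a/b, limma called 0 and edgeR 0. The cause was not tested.

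Same-numbered libraries had correlations of deviations of −0.20, 0.16 and 0.31 in the Eed table and 0.23 in the Ring1 table. The numbers were not taken as pairs in the main test. With 2 libraries a group, differently numbered Ring1 libraries have −0.23 by construction. The Ring1 value thus cannot decide whether they are pairs, and library 2 was the shallowest of both Ring1 groups. With the replicate block limma called 1 gene for Eed and 36 for Ring1a/b. edgeR with the replicate block, chosen after seeing the data, called 1 and 34 genes, of which 0 and 2 (Tnc, adjusted p = 0.0399, and Thbs1, 0.0278, both Ring1a/b) were interstitial matrix genes. The deposited column names of the Eed table share a letter between same-numbered libraries, and what it marks is not given in the sources used here.

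Without each library in turn, limma called 0 to 4 genes for Eed, 0 to 565 for Ring1a/b and 0 to 4 for the difference between knockouts. DESeq2 without each library, chosen after seeing the data, called 31 to 188 genes for Eed (49 without control 1, 87 without control 3, 187 without knockout 2 and 142 without knockout 3) and 39 to 685 for Ring1a/b (95 without control 2 and 93 without 2KO 2), with 0 to 5 interstitial matrix genes in the Eed and 0 to 5 in the Ring1a/b comparison. The log2 fold change of Col1a1 in the Eed comparison ran from −0.044 to 0.87 in limma and from −0.14 to 0.97 in DESeq2 (−0.0095 without control 2). In the Ring1a/b comparison Prelp ran from −1.16 to 2.83 and from −1.31 to 2.76, Postn from −0.30 to 0.17 and from −0.31 to 0.17 (0.14 in DESeq2 without control 2), and Sparc from −0.37 to 0.11 and from −0.37 to 0.11 (0.094 in DESeq2 without 2KO 1). Quantile scaling turned Postn to 0.065 and Sparc to 0.075 there. Every Ring1a/b fit without a library left 1 library in a group, so the calls of those fits carry little weight.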

Other observations

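Genes of other cell types not described above had these values in the same libraries. Schwann cell markers summed to 1770 to 2462 in the Eed controls and 1537 to 1856 in the knockouts. Myeloid markers summed to 1337 to 4621 and to 2190 to 3423, and T cell markers to 4091 to 6126 and to 4623 to 6336. In the Ring1 libraries, Merkel cell markers summed to 6.25 and 13.3 in the controls and to 108 and 35.9 in the double knockout. Of 8 myeloid markers tested there, 1 was above 0 (50% of all genes) and 7 below, with a median log2 fold change of −0.98. At an unadjusted limma p under 0.05, 0 of them were higher (background 5.62%) and 0 lower (background 4.81%). Among the dermal papilla markers, Rspo3, an activator of Wnt signalling, had control counts of 262 and 316 and 2KO counts of 79.1 and 30.5 and fell in the authors' deposited table (adjusted p = 0.000858).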
